A study of Arabidopsis thaliana with 6 samples.

Results

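Ethylene response factors (ERFs) are plant transcription factors with a single AP2/ERF DNA-binding domain, and 10 of their genes are described here: ERF1 (AT3G23240), ORA59 (AT1G06160), ESE1 (AT3G23220), ERF2 (AT5G47220), ERF5 (AT5G47230), ERF6 (AT4G17490), ERF104 (AT5G61600), ERF4 (AT3G15210), ERF11 (AT1G28370) and ESE3 (AT5G25190). They were listed by locus, out of 27444 protein-coding genes, and although the rule uses no measured value the list was drawn up with earlier results of these data known. Every peak whose summit lay in 1 of these genes, or at most 1000 bp from it, was assigned to that gene. This gave 24 of the 37625 peaks of the series, with 8 in the ENAP1 ChIP of air-treated seedlings, 8 in the ENAP1 ChIP of ethylene-treated seedlings, 2 in the air reChIP and 6 in the ethylene reChIP.

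The material was whole Arabidopsis thaliana Col-0 seedlings, grown in darkness for 3 days at 24 °C and exposed for 4 hours to hydrocarbon-free air alone or to the same air carrying 10 ppm ethylene. ENAP1 ChIP used an antibody against green fluorescent protein, and in reChIP the eluted complexes were precipitated once more with EIN2 antibody, to select DNA bound by ENAP1 and EIN2 together; the tagged ENAP1 construct and its promoter are not given in the sources used here. The 6 samples were these 2 assays and an input for both treatments. Each group was a single library, so no difference below has a replicate check and no p-value was computed across genes. Titles and descriptions name ethylene for 3 of the samples; their treatment labels say air, and the former were followed.

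In the ethylene pathway, the membrane protein EIN2 passes the signal towards the nucleus when the hormone is present, and the transcription factors EIN3 and EIL1 then accumulate and switch on target genes. ERF1 is a direct EIN3 target and stands at the head of a cascade in which ERFs bind the GCC box of defence and stress genes. ERFs of group IX are mostly activators, whereas many of group VIII, ERF4 and ERF11 among them, carry an EAR motif and repress transcription. ENAP1 is a nuclear protein that associates with EIN2.

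The depth of the libraries differed widely. After removal of duplicates the ENAP1 ChIP libraries held 8400099 tags in air and 8811720 in ethylene, and the reChIP libraries 644263 and 304818. Redundant tags made up 37% and 34% of the ENAP1 ChIP libraries and 84% and 83% of the reChIP libraries. Median pileups at a summit were 46.9 and 33.8 tags in the ENAP1 ChIP lists and 5 and 4 tags in the reChIP lists. Fold enrichment is the value that the authors' peak caller gave each peak over its local control, and it was read only within a list, whose median was 2.69 for ENAP1 ChIP in air and 2.86 in ethylene, and 3.16 for reChIP in air and 3.39 in ethylene. Both air lists shared 1 control library. For the ethylene reChIP the control was the air reChIP library, so a peak there was called against air reChIP DNA rather than input. The fold there is ethylene reChIP signal over scaled local air reChIP signal, from 1 library each. The median control level in that list was 0.414 scaled tags, too few to tell weak air reChIP signal from none at a typical site. Whether a peak there is a gain over air was therefore not tested across replicates.

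ENAP1 peaks lay at 6 of the 10 ERF genes in air and at 6 in ethylene. The air genes were ERF1, ERF2, ERF4, ERF5, ERF6 and ERF104; the ethylene genes were the same without ERF2 and with ORA59. Among all protein-coding genes, 38.6% had such a peak in air and 36.4% in ethylene. The ERF genes are short, 661 to 1389 bp, and of the 5313 protein-coding genes in that range of lengths 27.6% had a peak in air and 24.9% in ethylene. Both ENAP1 lists held ERF1, ERF4, ERF5, ERF6 and ERF104, which is 5 of 10 beside 31.5% of all genes. The ethylene reChIP list had peaks at ERF4, ERF5, ERF6, ERF104 and ESE3, 5 of 10 beside 34.0% of all genes (24.5% of those in the same range of lengths), and the air reChIP list at ERF6 and ERF104, 2 of 10 beside 30.5% (21.4%). With peaks of q of 0.05 or lower, the ENAP1 lists held 6 of the 10 in air (37.5% of all genes) and 5 in ethylene (34.4%), and with −log10 q of at least 5 they held 6 (26.9%) and 4 (22.4%). ERF11 and ESE1 had no peak in any list, as did 30.4% of all genes. With 10 genes, these counts describe the family members and do not set them apart from other genes.

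**Figure D1:**
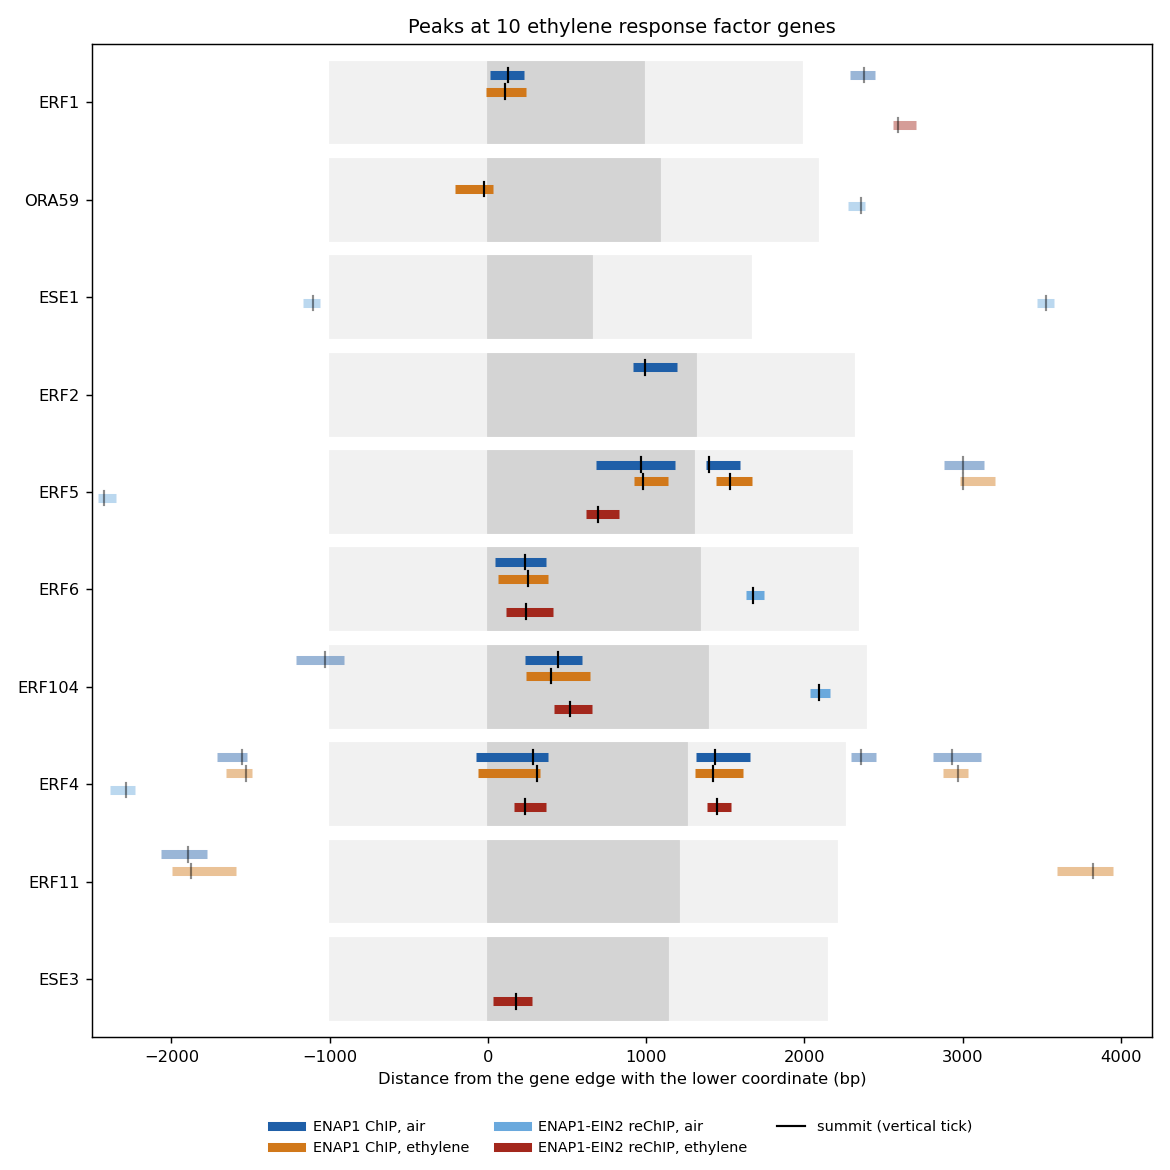
Peaks (coloured bars) and their summits (ticks) in the 4 lists at the 10 ERF genes, placed by distance in bp from the gene edge with the lower coordinate; the dark grey block is the gene, the light grey block the 1000 bp on each side, and pale bars are peaks whose summits lie outside that window. At ERF6, ERF104 and ERF4 the ethylene reChIP bars lie over the ENAP1 ChIP bars, and ESE3 has an ethylene reChIP bar alone.

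ERF1, the EIN3 target that joins ethylene and jasmonate signals in defence, had 1 ENAP1 peak in each treatment. In air it spanned 3:8295631-8295843 (TAIR10) with a pileup of 40.9 tags and 2.56-fold enrichment, and in ethylene 3:8295608-8295859 with a pileup of 35.5 tags and 3.26-fold enrichment. The 2 summits lay 17 bp apart, 128 and 111 bp inside the gene. The air peak stood under the median fold of its list and the ethylene peak above it. No reChIP summit lay in the ERF1 window; the nearest in the ethylene list was 1608 bp beyond the gene, at 2.92-fold with 3 tags, and the nearest in the air list was 4145 bp away.

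ORA59, which integrates jasmonate and ethylene signals to activate plant defensin genes, had no ENAP1 peak in air; the nearest air summit was 4264 bp from the gene. In ethylene a peak at 1:1882697-1882940 had its summit 26 bp outside the gene, with 18.6 tags, 1.78-fold enrichment and q = 0.317. That fold was at the 3.93rd percentile of its list, and the peak does not pass q of 0.05. Neither reChIP list had a summit within 1000 bp of ORA59.

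ESE1, an ethylene- and salt-inducible group IX gene, had no peak in any list. Its nearest summits were 6440 bp away in the air ENAP1 list, 7126 bp in the ethylene ENAP1 list and 3508 bp in the ethylene reChIP list. In the air reChIP list the nearest lay 1104 bp away, just outside the window, at 3.12-fold with 4 tags and q above 0.05.

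ERF2, an activator of jasmonate-responsive defence genes, had an ENAP1 peak in air alone. It spanned 5:19172561-19172841, with 61.4 tags and 2.08-fold enrichment, and its summit lay 321 bp inside the gene. Its −log10 q was 5.11. The nearest summit of the ethylene ENAP1 list was 4646 bp from ERF2, and the nearest reChIP summits were 4502 bp (air) and 7618 bp (ethylene) away. Whether ERF2 differs between the treatments was not tested, since each had 1 library.

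ERF5, ERF6 and ERF104 are activators of group IX that act in stress, growth and defence responses; ERF6 is a substrate of the MAP kinases MPK3 and MPK6, and ERF104 of MPK6. All 3 had ENAP1 peaks inside the gene in both treatments, at nearly the same base. At ERF6 the air peak (4:9752871-9753193) had 141.5 tags, 3.75-fold enrichment and −log10 q of 35.6, the largest of the 8 air values of these ERF genes. The ethylene peak at ERF6 (4:9752887-9753203) had 94.98 tags, 2.82-fold enrichment and −log10 q of 15.2, again the largest of its 8. The ERF6 summits lay 234 and 251 bp inside the gene, 17 bp apart.

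ERF104 carried 104.0 tags at 4.04-fold in air (5:24766577-24766937) and 65.0 tags at 2.36-fold in ethylene (5:24766583-24766991), with summits 44 bp apart. The air fold stood at the 80.7th percentile of its list and the ethylene fold at the 24.0th percentile of its own. The lists have different lengths and different controls, so these ranks show no change. A further air summit, 1027 bp from ERF104 and just outside the window, lay inside its group IX neighbour AT5G61590 (ERF107), at 2.87-fold.

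ERF5 had 2 ENAP1 peaks per treatment. The one inside the gene had 105.7 tags at 2.42-fold in air (5:19180567-19181065) and 66.6 tags at 1.99-fold in ethylene (5:19180806-19181020), with summits 14 bp apart. At 499 bp the air peak was wide for its list, whose median width was 267 bp. The second lay beyond the edge with the higher coordinate and was weak, at 1.93-fold with q = 0.0491 in air and 2.01-fold with q = 0.0652 in ethylene.

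ERF4, the group VIII repressor, also had 2 ENAP1 peaks per treatment, one inside the gene and one just beyond it. The outer peak had 58.0 tags and 4.31-fold enrichment in air (3:5122616-5122961), the largest fold of the air peaks at these ERF genes, and 38.8 tags and 2.65-fold enrichment in ethylene (3:5122612-5122914). Its summits lay 177 and 166 bp beyond the gene edge with the higher coordinate. The inner peak had more tags but less enrichment, with 99.7 tags at 2.10-fold in air (3:5121228-5121685) and 60.6 tags at 1.76-fold in ethylene (3:5121239-5121631). Beyond the window on the higher side, further summits lay 1099 bp (2.50-fold) and 1675 bp (3.26-fold) from the gene in air and 1711 bp (3.02-fold) in ethylene, and on the lower side 1555 bp (air) and 1530 bp (ethylene).

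ERF11, the other EAR-motif repressor among the 10, had no summit within 1000 bp in any list. The nearest ENAP1 summits, 1893 bp away in air (1:9953708-9954002; 62.2 tags, 3.95-fold) and 1875 bp away in ethylene (1:9953779-9954183; 46.4 tags, 6.30-fold), lay between ERF11 and its group VIII neighbour ERF12. They were 776 and 794 bp from ERF12 and were therefore counted for ERF12. This ethylene fold was higher than that of any of the 8 ethylene ENAP1 peaks assigned to the 10 ERF genes, which reached 3.26-fold. ESE3, an ethylene- and salt-inducible ERF gene, had its nearest ENAP1 summits 13445 bp away in air and 13452 bp away in ethylene.

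**Figure D2:**
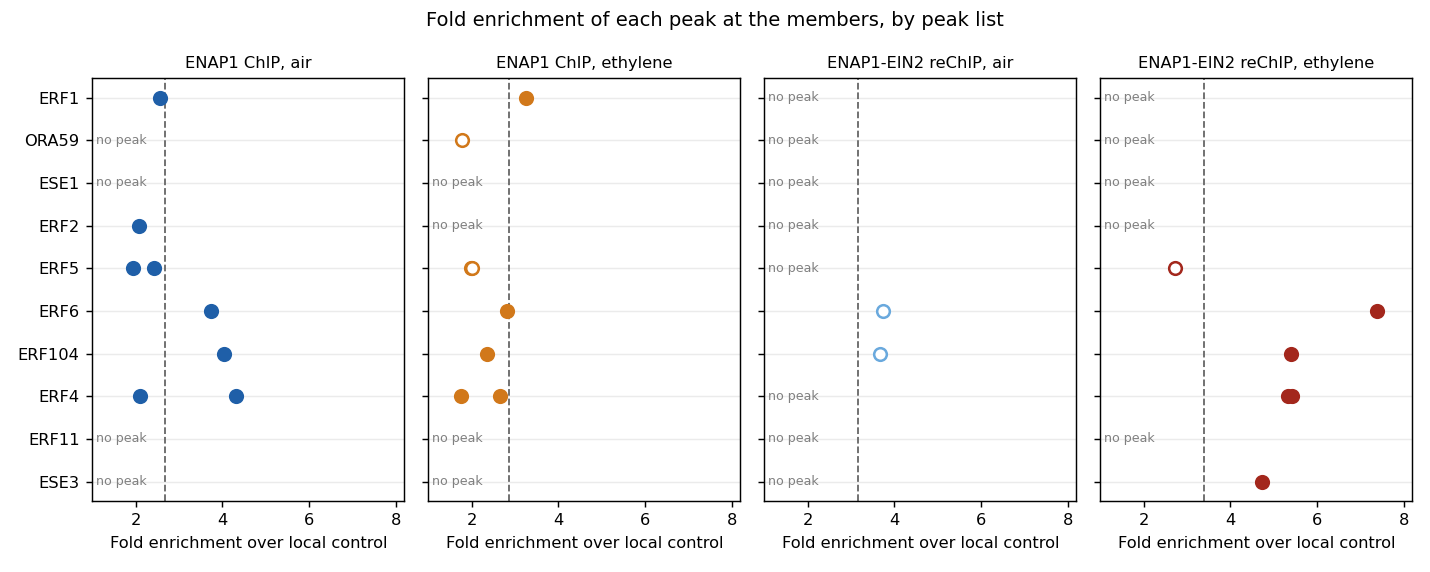
Fold enrichment over local control (linear axis) of each peak at the 10 ERF genes, 1 panel per list; filled points have q of 0.05 or lower, open points a larger q, and the dashed line is the median of the whole list. In the ENAP1 ChIP lists 3 of 8 air points and 1 of 8 ethylene points lie above the line, and in the ethylene reChIP list 5 of 6 do.

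At most of these genes ENAP1 enrichment was modest although the pileups were high. The folds of the 8 air peaks ran from 1.93 to 4.31, and 3 of them were above the median of the list; those of the 8 ethylene peaks ran from 1.76 to 3.26, with 1 above the median. In both lists 6 of the 8 pileups were above the list median. The local control level that the caller set against each peak was recovered from pileup and fold. At the air peaks inside ERF2, ERF4, ERF5, ERF6 and ERF104 it was 29.0, 47.0, 43.0, 37.0 and 25.0 tags, which is 2.07, 3.36, 3.07, 2.64 and 1.79 times the list median of 14.0. At the ethylene peaks inside ERF4, ERF5, ERF6 and ERF104 it was 34.0, 33.0, 33.0 and 27.0 tags, or 3.66, 3.55, 3.55 and 2.91 times the list median of 9.29. The peak in ERF1 lay near the median in both lists, at 1.10 times in each. Because this level was computed from pileup and fold, a high pileup with a low fold implies a high control level by arithmetic. In the ethylene reChIP list, with the air reChIP as control, all 6 peaks at ERF genes lay above the median control level. They ran from 1.14 to 2.17 times it, highest at ERF6. What raised the control signal at these genes was not tested.

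**Figure D3:**
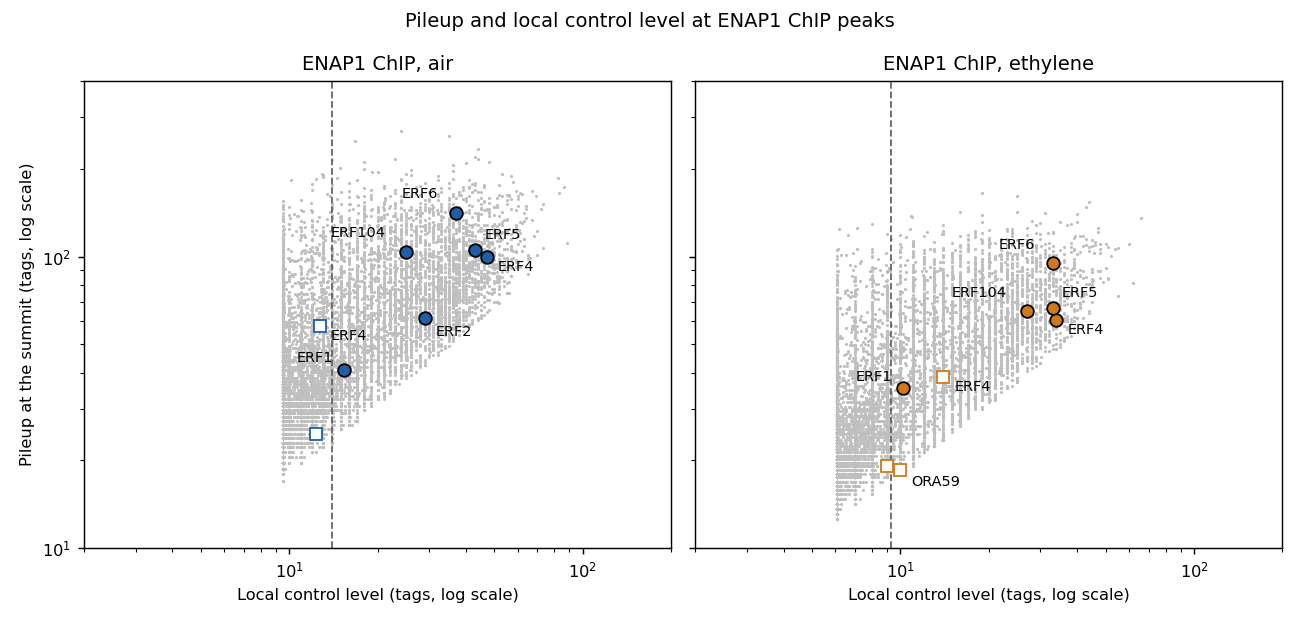
Pileup at the summit against the local control level, both in tags on log axes, for all peaks of the 2 ENAP1 ChIP lists (grey), with peaks inside the ERF genes (filled circles) and beside them (open squares); the dashed line is the median control level. The filled circles of ERF4, ERF5, ERF6 and ERF104 lie to the right of the line in both panels and that of ERF1 close to it; the open squares beside ERF4 and ERF5 lie at 0.906 and 0.880 times the median in air and 1.51 and 0.969 times in ethylene.

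Most ENAP1 summits inside these genes lay more than 200 bp from a gene edge. Of the 6 air summits inside an ERF gene, that of ERF1 was within 200 bp of an edge and the other 5 lay 234 to 442 bp from the nearer edge. In ethylene ERF1 was again within 200 bp, and the other 4 lay 251 to 398 bp from it. Of all summits inside a protein-coding gene, 56.0% in air and 60.3% in ethylene lay at most 200 bp from the nearer edge, and 30.2% and 27.1% were 201 to 500 bp from it. The summits in ERF1, ERF4, ERF6 and ERF104 were nearer to the edge with the lower coordinate, and those in ERF2 and ERF5 to the other edge. Which edge is the start of transcription was not used here.

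The positions were largely shared between treatments. Of the 8 ethylene peaks at ERF genes, 7 overlapped an air peak by at least 1 bp, beside 79.5% (exact binomial 95% interval 78.7 to 80.4, counting error only) of the whole ethylene list; the exception was ORA59. Conversely an ethylene peak overlapped 7 of the 8 air peaks, beside 72.3% (71.4 to 73.2) of the air list, the exception being ERF2. Summits of the 7 pairs were 11 to 134 bp apart, and the median over all overlapping ethylene peaks was 21 bp. These 2 lists had different control libraries.

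In the ethylene reChIP, the highest peak at an ERF gene lay in ERF6. It spanned 4:9752936-9753235 with 13 tags (exact Poisson 95% interval 6.92 to 22.2, counting error only), 7.38-fold enrichment and −log10 q of 7.48, and ranked 39th by fold among 9881 peaks. Its summit was 8 bp from the ethylene ENAP1 summit and 9 bp from the air one. Such a −log10 q of at least 5 was reached by 133 peaks of this list, which gave 0.707% of all genes as targets, and among the 10 ERF genes by ERF6.

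ERF4 had an ethylene reChIP peak on each of its ENAP1 peaks. The inner one (3:5121470-5121670) had 7 tags (interval 2.81 to 14.4) and 5.32-fold enrichment, and the outer one (3:5122685-5122841) 7 tags and 5.43-fold enrichment. Their summits were 74 and 23 bp from the ethylene ENAP1 summits. At ERF104 the reChIP peak (5:24766763-24767005) also had 7 tags, with 5.39-fold enrichment, and lay 121 bp from the ethylene and 77 bp from the air ENAP1 summit. These 3 peaks had −log10 q of 3.54 to 3.65 and stood at the 95.8th to 96.6th percentile of fold in the list. Their tag intervals overlap each other and that of ERF6, so an order among them was not detectable at this depth.

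ESE3 and ERF5 stood apart from those genes. The ESE3 peak (5:8706775-8707023; 6 tags, 4.72-fold, −log10 q of 2.77) was inside the gene, 175 bp from its edge, and no ENAP1 peak was near it. The ERF5 peak (5:19180499-19180711) rested on 3 tags (interval 0.619 to 8.77) at 2.72-fold with q = 0.138; it overlapped the wide air ENAP1 peak but not the ethylene one, whose summit was 289 bp away. In all, 4 of the 6 ethylene reChIP peaks at ERF genes overlapped an ethylene ENAP1 peak, beside 17.4% (16.7 to 18.2) of the whole reChIP list. ERF4 held 2 of the overlapping peaks, and 79.9% of the peaks in the whole list rested on 5 tags or fewer. Peaks with q of 0.05 or lower lay at 4 of the 10 ERF genes, beside 22.5% of all genes, and 4 of these 5 peaks overlapped an ethylene ENAP1 peak, beside 24.1% (23.0 to 25.2). Without a q limit, and whether or not the peaks overlap, ERF4, ERF5, ERF6 and ERF104 were targets of both ENAP1 lists and of the ethylene reChIP. This is 4 of 10, beside 14.6% of all genes of any length. Whether these counts differ from those shares was not tested.

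The air reChIP held peaks of few tags at ERF6 and ERF104, away from the ENAP1 sites. In the whole air reChIP list 11.3% (10.7 to 12.0) of peaks overlapped an air ENAP1 peak, so most lay away from them. Both folds were above the list median of 3.16. At ERF6 the peak (4:9754456-9754567; 3.75-fold) lay 336 bp beyond the gene and 1439 bp from the air ENAP1 summit. At ERF104 the summit of the peak (5:24768380-24768505, 3.67-fold) lay 706 bp beyond the gene and 1652 bp from the air ENAP1 summit. That summit was inside another gene, AT5G61605. Each rested on 5 tags (interval 1.62 to 11.7) with q = 0.0507. With q of 0.05 or lower none of the 10 ERF genes had an air reChIP peak, beside 7.07% of all genes, and 19.4% of the peaks in this list passed that limit. This air library was the control of the ethylene reChIP. The local control level that MACS2 set under the ERF6 ethylene reChIP peak was 0.898 scaled tags, beside 13 ethylene tags. Weak air signal cannot be told from none at so few tags, and the difference from ethylene has no replicate check.

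**Figure D4:**
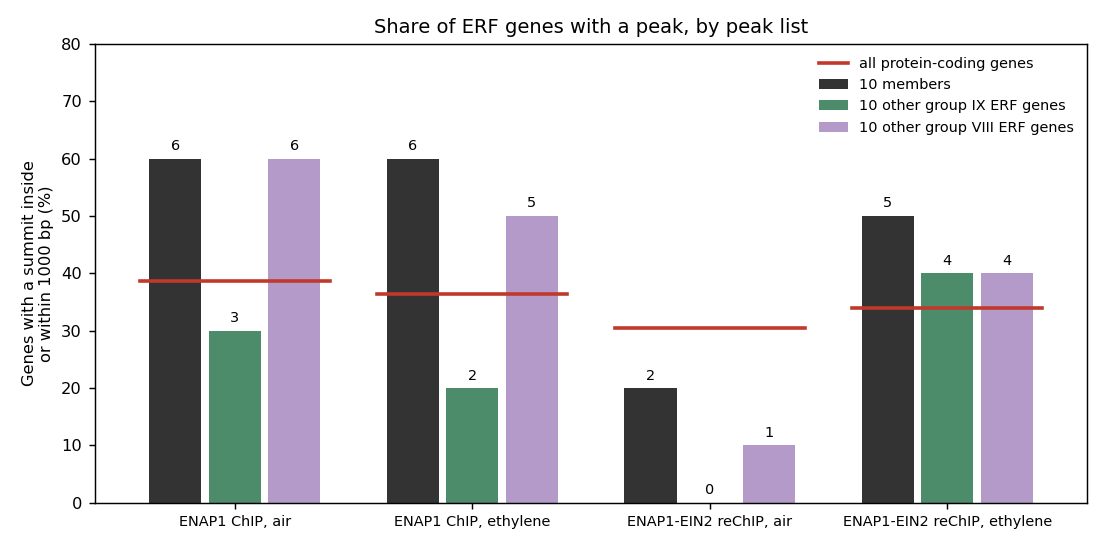
Percentage of genes with a summit inside or within 1000 bp in each list, for the 10 ERF genes described and for 10 further genes each of ERF groups IX and VIII (bars, with the number of genes above each), beside all protein-coding genes (red line). The 10 genes and the group VIII genes lie above the line in both ENAP1 ChIP lists, and the other group IX genes below it. The line is not matched for gene length, and 10 genes per group do not set the groups apart.

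The relatives of these genes give the family context. Of 10 other group IX genes, 396 to 1256 bp long, 3 had an ENAP1 peak in air (38.6% of all genes) and 2 in ethylene (36.4%). Among genes of 661 to 1389 bp, the range of the ERF genes described, these shares were 27.6% and 24.9%. No share was computed for the lengths of the group IX relatives. None of these 10 relatives had an air reChIP peak (30.5%) and 4 had an ethylene reChIP peak (34.0%). The highest was ERF1A (AT4G17500), which lies 5041 bp from ERF6, with 3.44-fold in air, 3.32-fold in ethylene and 4.74-fold in the ethylene reChIP. ERF13 had 2.10-fold in air and 1.67-fold in ethylene, and ERF107, 832 bp from ERF104, had 2.87-fold in air alone. ERF98 (AT3G23230), between ESE1 and ERF1, had no peak, like ERF14, ERF105 and ERF106. The ethylene reChIP peaks at ERF15, ERF91 and ERF96 (2.92-, 2.92- and 3.08-fold) had q above 0.05.

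Of 10 other group VIII genes, 6 had an ENAP1 peak in air (38.6% of all genes) and 5 in ethylene (36.4%). An air reChIP peak lay at 1 of them (30.5%) and an ethylene reChIP peak at 4 (34.0%). ERF12 had 3.95-fold in air and 6.30-fold in ethylene, from the peak described beside ERF11, and ERF9 3.39- and 4.12-fold. ERF8 had 3.63-fold in air and 1.72-fold in ethylene, the latter with q above 0.05. ERF7 had 2.94-fold in air and 3.28-fold in ethylene, ERF3 2.01- and 1.97-fold, and ERF10 1.98-fold in air. The shoot-regeneration gene DRNL had the air reChIP peak, at 5.01-fold with 8 tags. In the ethylene reChIP the highest were ERF10 (4.38-fold, 5 tags) and ERF8 (3.37-fold, 4 tags), followed by ERF12 (2.88-fold) and DRN (2.86-fold), both with q above 0.05.

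The status over the 4 lists was the same for some of these genes and single for others. ERF4 and ERF5 had peaks in all lists but the air reChIP (9.54% of all genes), ERF6 and ERF104 in all 4 (5.06%), and ERF11 and ESE1 in none (30.4%). ERF1, ERF2, ORA59 and ESE3 each had a status of their own among the 10. Over the 20 other group VIII and IX genes, the status of ERF4 and ERF5 was met at ERF1A, ERF8 and ERF12, and that of ERF11 and ESE1 at 6 genes. ERF1, in both ENAP1 lists alone (9.98% of all genes), was matched by ERF3, ERF7, ERF9 and ERF13. ESE3, in the ethylene reChIP alone (11.4%), was matched by ERF15, ERF91, ERF96 and DRN. ERF2, in the air ENAP1 list alone (3.04%), was matched by ERF107. None of the 20 equalled ORA59, in the ethylene ENAP1 list alone (2.12% of all genes), or ERF6 and ERF104. The status of ERF6 and ERF104 rests on air reChIP peaks with q = 0.0507 outside the genes. EIN2 and CTR1 also had peaks in all 4 lists.

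Among 9 genes that act on ERFs, 7 had an ENAP1 peak in air and 6 in ethylene, and 5 had a peak in each reChIP list. They are 1553 to 5977 bp long, and of all genes in that range of lengths 44.0% had an ENAP1 peak in air and 41.8% in ethylene, 33.7% an air reChIP peak and 37.9% an ethylene reChIP peak. MPK3 had 3.71-fold in air and 3.33-fold in ethylene, MKK9, a kinase upstream of MPK3 and MPK6, 2.89- and 2.95-fold, and MPK6 1.64-fold in air alone. EIN2 had the highest ENAP1 fold of the 9 genes (9.03 in air, 5.50 in ethylene), CTR1 had 3.12 and 4.01, and EIL1 2.58 and 3.85. In the reChIP lists EIN2 was again the highest, with 34.6-fold on 96 tags in air and 4.69-fold on 272 tags in ethylene. The reChIP lists have different controls, with the air reChIP library as that of the ethylene list, so folds cannot be compared between them. The median pileup of the ethylene list was 4 tags, and why EIN2 had so many was not tested. EIN3 had no ENAP1 peak and reChIP peaks of 5.80-fold in air and 2.78-fold in ethylene, and in the air reChIP MPK3 had 4.13-fold and CTR1 3.85-fold. In the ethylene reChIP EBF1 had 4.11-fold and CTR1 3.22-fold, with q above 0.05 for the latter.

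Among 5 defence genes that ERF1 and ORA59 are known to activate, the hevein-like gene PR4 stood highest, with ENAP1 peaks of 6.77-fold in air (73.3 tags) and 5.69-fold in ethylene (42.0 tags). The basic chitinase gene CHIB (AT3G12500) had a 2.78-fold peak in air alone. Of the plant defensin genes PDF1.2A, PDF1.2B and PDF1.2C, none had an ENAP1 peak, and PDF1.2C had an ethylene reChIP peak of 2.92-fold on 3 tags with q above 0.05. In total 2 of the 5 had an ENAP1 peak in air (38.6% of all genes), 1 in ethylene (36.4%), 1 a peak in the air reChIP (30.5%) and 1 in the ethylene reChIP (34.0%). The air reChIP peak lay at PR4, at 2.89-fold on 5 tags with q above 0.05.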

How the data were processed

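The data were 4 peak lists. Reads were aligned with BWA to TAIR10, per the submitters' processing notes. MACS2 2.1.0.20150603 called peaks for each library against 1 control library, without pooling, per the file headers; p was limited to 0.01, genome size set to 120000000 bp and duplicates reduced to 1 tag per position. The authors deposited, for each peak, the pileup as a signal in tags (the larger library scaled to the smaller), −log10 of p and q, and fold enrichment as a ratio over local control. The headers state that q is not calculated, yet the column holds values, which were used.

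From these, summits were assigned to genes of a RefSeq table (assembly TAIR10.1, all 44 listed loci matched), used for names, lengths and distances; its coordinates are not printed. Its register was checked by shifts of 1000 to 10000 bp: 40.5% of air ENAP1 summits lay within 200 bp inside a gene edge unshifted, and at most 10.6% shifted. The control level was (pileup + 1) / fold − 1. The reChIP pileups were whole tags. Assignment and overlap were tested on simulated peaks. Intervals are exact binomial or exact Poisson at 95%. The table has no strand, and no genome or promoter sequence was used here, so starts, motifs and sequences are not given.

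The ERF genes and the other lists were chosen with earlier results of these data known. Named were all 10 genes, up to 4 highest genes per list and library, family neighbours, the nearest gene of a peak where it was another, and family genes with the same pattern over the lists; other list genes named were chosen after their values were seen. Alternatives were stricter peaks, other windows, nearest gene only, any part of a peak, and stricter overlap. Python 3.11.15, pandas 2.3.3 and SciPy 1.17.1 were used.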

Additional observations from a re-analysis of the deposited data

How the results depend on the processing

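The counts of ERF genes with a peak were recomputed under 9 alternatives and those of overlapping peaks under 4; 37 of the 48 values stayed within 1.5 times the count reported. With only the peaks not below the list's median fold, ENAP1 targets fell from 6 to 3 in air (ERF4, ERF6 and ERF104) and from 6 to 1 in ethylene (ERF1). The 2 air reChIP targets became 0 with −log10 q of at least 5, with q of 0.05 or lower and with summits inside the gene, 1 with windows of 500 bp and with the nearest gene only, and 4 with windows of 2000 bp. With −log10 q of at least 5, the ethylene reChIP targets fell from 5 to 1 (ERF6), the shared ENAP1 peaks from 7 to 4 and the ethylene reChIP peaks on ENAP1 peaks from 4 to 1. Stricter peaks, narrower windows and the nearest-gene rule can only lower these counts by construction, and the 2000 bp window can only raise them. Depth after removal of duplicates limits the reChIP most: 72.3% of its air peaks and 79.9% of its ethylene peaks rested on 5 tags or fewer. No paired analysis was possible because each group had 1 library.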
